A study of Mus musculus with 6 samples.

Results

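The Rab GTPases examined here were all protein-coding genes whose symbol is Rab followed by a number and, in some, a letter. The rule found 59 genes among 22046 protein-coding genes, with 1 table entry each, and 35 of them had a mean of at least 1 FPKM (a read density, corrected for the length of the gene and the size of the library) and were tested. The RNA came from macrophages that had been cultured from the bone marrow of C57BL/6 mice and was read by RNA sequencing. The compared cells carried a small interfering RNA against Cxcr4 (siCXCR4) or a negative-control siRNA (siNC), and both groups had received lipopolysaccharide (LPS) at 100 ng/ml for 12 hours, so that no library shows cells without LPS or without transfection. The deposited columns are headed wt for siNC and mko for siCXCR4, abbreviations that the labels do not explain, and the groups are called here by their labels. No label ties replicates to separate mice or cultures, so each p-value reflects the spread among libraries alone, possibly a technical one. In bulk RNA, fewer cells of a type and less RNA per cell cannot be told apart.

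Rab proteins are small GTPases anchored to membranes by prenyl groups, and each marks a set of organelles. In the GTP-bound form they recruit effectors that tether, move and fuse vesicles. Guanine nucleotide exchange factors (GEFs) switch them on, and GTPase-activating proteins (GAPs) switch them off. In macrophages Rab5 and Rab7 proteins mark successive stages of the maturing phagosome, and other members carry Toll-like receptors, cytokines and lysosomal enzymes.

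In the table labelled siNC replicate 3, the counts matched the reads of siNC replicate 2 in each of 19072 genes with reads. No gene differed between them, and they were counted as 1 sample, leaving 3 siCXCR4 and 2 siNC libraries. The libraries held 18890751 to 21780840 reads in genes, of which 0.475% to 0.489% fell in Rab genes. By chi-square per gene, siCXCR4 replicate 2 lay nearer to siNC replicates 1 (4.50) and 2 (5.88) than to siCXCR4 replicates 1 (6.87) and 3 (8.66). The 2 siNC libraries were 5.24 apart, so siNC replicate 1 was also nearer to siCXCR4 replicate 2 than to siNC replicate 2. Several results are also given without siCXCR4 replicate 2. Leaving out a library for its likeness to a control tends to widen the difference between groups. Calls made only without it therefore carry no added weight. Cxcr4 itself, the siRNA target, was at 31.1, 36.2 and 32.7 FPKM in siCXCR4 libraries, against 41.3 and 42.1 FPKM in siNC libraries. Its log2 fold change was -0.32, the exact two-sided permutation test gave p = 0.1, the smallest that 3 libraries against 2 allow, and the adjusted p was 0.457 by limma, 0.0637 by edgeR and 0.0496 by DESeq2. All 10 macrophage markers were above 1 FPKM, with a summed level of 4351 to 4710 FPKM in siCXCR4 and 4468 to 4709 FPKM in siNC. Of the other lists, neutrophil and precursor genes were highest, at a sum of 32.7 to 40.0 FPKM in siCXCR4 and 34.5 to 35.6 FPKM in siNC, mostly from Ngp. Endothelial markers summed to 6.37 to 7.75 FPKM in siCXCR4 and 6.22 to 7.27 FPKM in siNC, and no other list of foreign cell markers exceeded 1.34 FPKM.

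To show where transcription of contrasting members starts, the sequences upstream of the RefSeq start of 4 Rab genes follow, each 250 bases long, 5′ to 3′ on the gene's strand, from RefSeq for GRCm38.p6. Shown are the most abundant Rab gene (Rab5c), the members above 100 FPKM with the most and the fewest CpG dinucleotides (Rab10 and Rab32), and Rab8b, the gene of lowest p with an entry. All 4 genes lie on the minus strand, and capitals mark CpG dinucleotides. The deposited tables place the start of Rab32 further upstream, so that 58 bases at the end of its window lie inside the gene as listed there; for the other 3 genes the number is 0.
Rab5c, chr11:100738216-100738465: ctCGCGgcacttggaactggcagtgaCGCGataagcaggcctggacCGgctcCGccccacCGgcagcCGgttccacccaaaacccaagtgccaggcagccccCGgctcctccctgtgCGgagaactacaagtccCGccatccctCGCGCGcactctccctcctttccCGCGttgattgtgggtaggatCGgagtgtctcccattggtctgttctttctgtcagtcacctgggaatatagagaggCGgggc
Rab10, chr12:3309970-3310219: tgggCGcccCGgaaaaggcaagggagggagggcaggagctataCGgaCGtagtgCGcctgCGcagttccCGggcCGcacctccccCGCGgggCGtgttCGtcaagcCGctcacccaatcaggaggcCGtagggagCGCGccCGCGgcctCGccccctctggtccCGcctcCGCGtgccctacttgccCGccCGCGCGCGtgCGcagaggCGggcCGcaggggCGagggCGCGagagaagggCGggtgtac
Rab32, chr10:10558208-10558457: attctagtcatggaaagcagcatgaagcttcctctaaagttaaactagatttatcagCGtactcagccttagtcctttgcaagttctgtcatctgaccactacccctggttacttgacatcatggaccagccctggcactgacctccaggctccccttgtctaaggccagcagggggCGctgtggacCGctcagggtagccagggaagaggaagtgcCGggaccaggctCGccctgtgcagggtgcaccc
Rab8b, chr9:66919706-66919955: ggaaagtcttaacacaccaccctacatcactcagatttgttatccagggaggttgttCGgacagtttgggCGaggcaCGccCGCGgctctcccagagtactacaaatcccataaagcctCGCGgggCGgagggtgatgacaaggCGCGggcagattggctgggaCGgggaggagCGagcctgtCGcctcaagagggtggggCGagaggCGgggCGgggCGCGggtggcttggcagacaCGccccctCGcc
Rab10 carried 34 CpGs and Rab32 carried 5, although their messages differed by a factor of 1.24 in mean FPKM, Rab32 being the higher. Rab5c had 18 CpGs and Rab8b had 20.

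Of the 59 Rab genes, 48 had an upstream sequence in RefSeq. Its window was CpG-rich, with at least 50% G and C and an observed-to-expected CpG ratio of at least 0.6, in 23 of 32 tested Rab genes (71.9%) and in 6 of 16 untested ones (37.5%). Over all protein-coding genes with a sequence the same shares were 67.6% of tested and 25.1% of untested genes, so tested Rab genes stood near the background. The median CpG count was 18 in tested and 10 in untested Rab genes, against 17 and 4 over all protein-coding genes. The GC box GGGCGG (either strand) occurred upstream of 21 of 32 tested Rab genes (65.6%, against 61.4% of all tested genes). The CCAAT box (CCAAT, either strand) occurred in 16 (50%, against 36.5%), and TATAAA (either strand) in 1 (3.12%, against 5.80%). The E-box CACGTG occurred in 3 (9.38%, against 9.23%). Among the 16 untested Rab genes GGGCGG occurred in 12 (75%, against 31.4% of untested protein-coding genes). There CCAAT occurred in 6 (37.5%, against 35.8%), TATAAA in 3 (18.75%, against 16.7%) and CACGTG in 1 (6.25%, against 4.95%). These matches describe letters in the window and not binding.

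**Figure D1:**
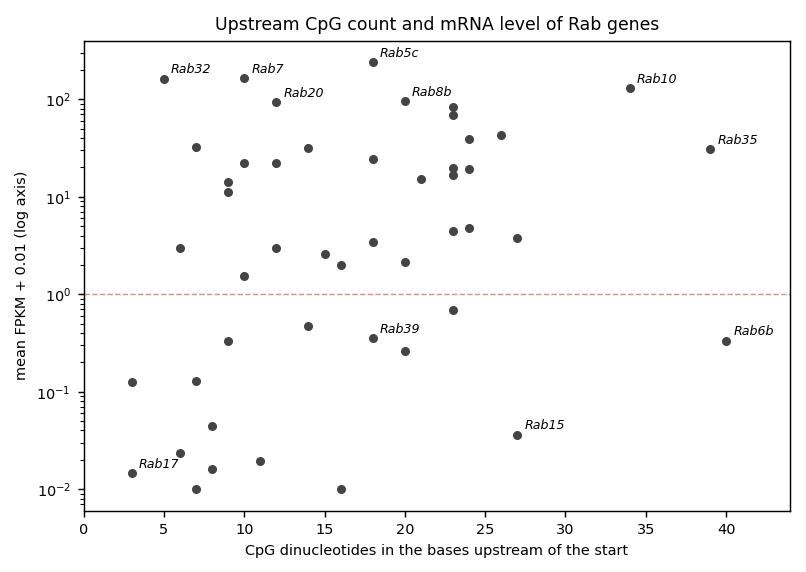
Upstream CpG count and mRNA level of the 48 Rab genes with a RefSeq sequence: the x axis counts CpG dinucleotides in 250 bases and the y axis gives the mean FPKM over the 5 libraries plus 0.01, on a log axis, with a dashed line at 1 FPKM. Members above 100 FPKM range from 5 CpGs (Rab32) to 34 (Rab10), and Rab6b, at 0.323 FPKM, has 40.

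Rab messages spanned a wide range of levels. The 4 genes above 100 FPKM were Rab5c, Rab7, Rab32 and Rab10, and 25 genes had at least 10 FPKM, 10 had 1 to 10 FPKM and 24 had less. The 5 most abundant members made up 51.3% to 52.0% of the summed Rab FPKM in siCXCR4 libraries and 51.6% and 52.1% in siNC libraries. The sum over all members was 1574, 1564 and 1517 FPKM in siCXCR4 libraries, against 1507 and 1513 FPKM in siNC libraries. All 3 siCXCR4 sums lay above both siNC sums, the lowest by less than the spread among siCXCR4 libraries. With reads in listed genes as the denominator the sums were 1574, 1569 and 1538 FPKM in siCXCR4 libraries, against 1551 and 1546 FPKM in siNC libraries, and the groups overlapped. In order of mean level over the 5 libraries, 13 of 34 neighbouring pairs of tested genes had separate ranges, and 19 stood in the same order in every library. Rab5c lay above Rab7 in 5 of 5 libraries (ratio of means 1.46), Rab32 above Rab10 and Rab10 above Rab8b likewise with separate ranges. Such an order between genes also depends on the listed gene length, by which FPKM divides. Rab10 had more reads than Rab32 in every library (8738 to 10018 against 7013 to 8629), over 3513 against 2339 listed bases. Rab7 and Rab32 (ratio 1.01), Rab8b and Rab20 (1.02), and Rab21 and Rab18 (1.005) were not separated beyond the spread between libraries.

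**Figure D2:**
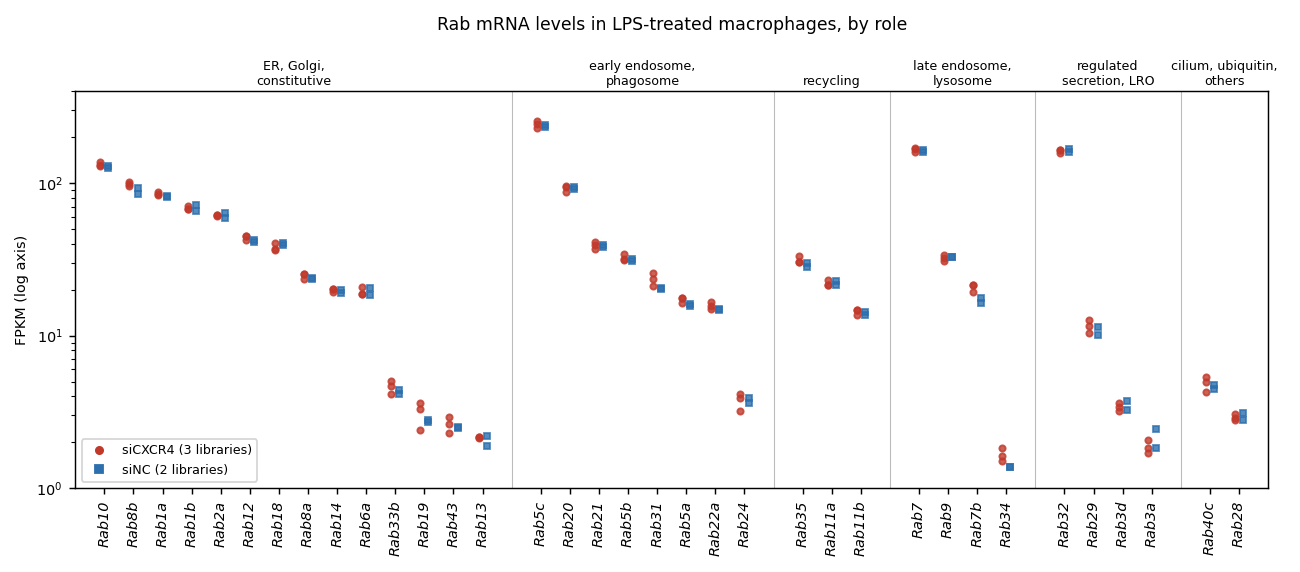
FPKM (log axis) of the 35 tested Rab genes in each library, grouped by role and sorted by mean level, with siCXCR4 as circles and siNC as squares; LRO stands for lysosome-related organelles. Levels run from 1.55 FPKM (Rab34) to 241 FPKM (Rab5c) on average, and for most genes the points of the 2 groups lie on top of each other.

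No Rab gene passed the comparison of siCXCR4 with siNC. By limma on log2(FPKM + 1), 0 of 35 had a Benjamini-Hochberg adjusted p under 0.05, and so had 0 of the 9943 genes tested in all (0%). The smallest adjusted p among Rab genes was 0.486. Run on recovered reads, the quasi-likelihood test of edgeR called 0 of 44 Rab genes (0.133% of all genes, smallest adjusted p 0.165 for Rab7b). DESeq2 called 0 of 44 (0.266% of all genes with a p, 0.307% of those with an adjusted p). Some Rab genes under 1 FPKM had no adjusted p by DESeq2. At an unadjusted p under 0.05 limma listed 2 Rab genes, Rab7b and Rab8b, both higher, which is 5.71% of the 35 against 9.34% of all genes. By edgeR the number was 4 of 44, against 9.73% of all genes, with Rab7b, Rab8b and Rab31 higher (4.46% of all genes) and Rab39 lower (5.27%). By DESeq2 it was 3 of 44, against 5.52%, the same 3 genes higher (2.68% of all genes) and 0 lower (2.84%). Without siCXCR4 replicate 2, edgeR listed 5 of 44, against 14.8% of all genes, 3 of them higher (6.72%) and 2 lower (8.09%). The 95% interval of the fold change lay within 1.5-fold in either direction for all 35 Rab genes on this scale, against 93.7% of all genes. With a pseudocount of 0.01 in place of 1 this held for 34, the exception being Rab34. Rab genes had a median level of 22.1 FPKM, against 6.68 FPKM over all genes tested. Their median coefficient of variation over the 5 libraries was 4.91%, against 6.77% for all genes.

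Differences between groups were small. The log2 fold change (siCXCR4 minus siNC throughout) lay above 0 in 25 of 35 Rab genes, against 56.4% of all genes, with a median of 0.05 against 0.01. The denominators behind the FPKM also counted reads outside the listed genes, 0.00033% to 1.37% in siCXCR4 libraries and 2.15% and 2.80% in siNC libraries, which lowers every gene more in siNC. With reads in listed genes as the denominator the count was 22 of 35 (46.3% of all genes) and the median 0.02, against -0.01 for all genes. With edgeR's scaling it was 25 of 44 (48.1% of all genes), also with a median of 0.02, and with DESeq2 25 of 44 (48.8%). By edgeR with a library left out, the count was 29 of 44 without siCXCR4 replicate 2 (49.1% of all genes), 22 of 44 without siCXCR4 replicate 1 (48.6%) and 24 of 44 without siCXCR4 replicate 3 (48.4%). It was 26 of 44 without siNC replicate 1 (49.7%) and 32 of 45 without siNC replicate 2 (49.4%). The Rab median was -0.00060 without siCXCR4 replicate 1 and 0.0040 without siCXCR4 replicate 3. The groups did not overlap in 10 Rab genes, all higher in siCXCR4 (17.9% of all genes were, and 9.92% were lower): Rab7b, Rab8b, Rab31, Rab34, Rab35, Rab5a, Rab12, Rab22a, Rab1a and Rab10. With the other denominator 5 of these remained higher without overlap (Rab7b, Rab8b, Rab31, Rab34 and Rab1a; 11.9% of all genes), and Rab18 lay lower without overlap (14.6% of all genes). Members share libraries and their scaling, so these counts are descriptions.

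**Figure D3:**
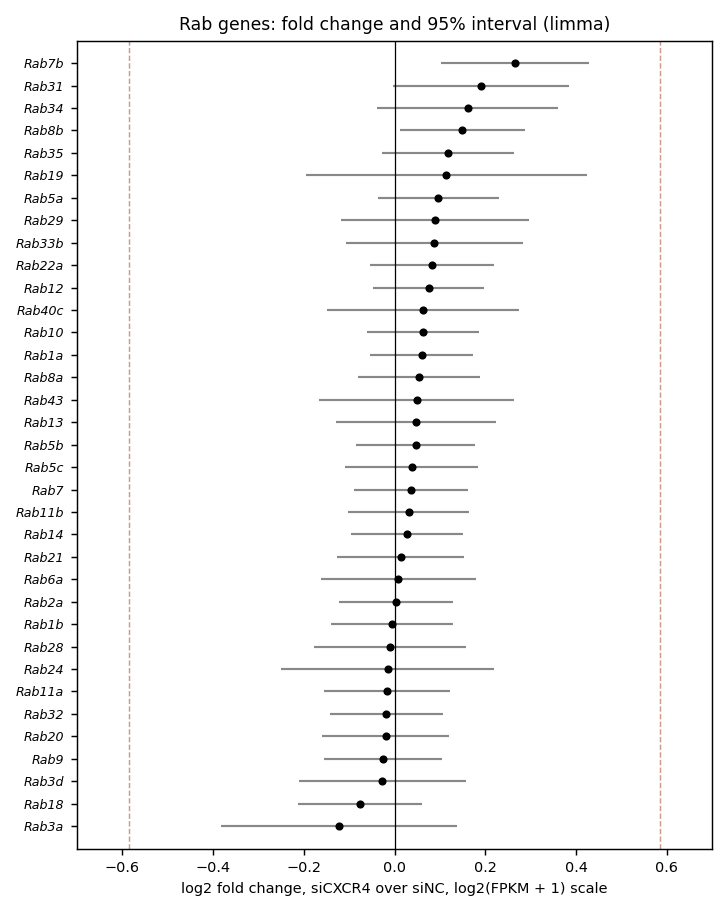
Log2 fold change, siCXCR4 over siNC on the log2(FPKM + 1) scale, of the 35 tested Rab genes (dots) with the 95% interval from limma (lines), sorted by size; dashed lines stand at 1.5-fold. The intervals of Rab7b and Rab8b lie above 0, the other 33 include 0, and all 35 lie between the dashed lines.

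Among Rab genes of the late endosome and lysosome, 4 of 7 were tested, 3 lay above 0 and 1 below, with a median log2 fold change of 0.10. Over all genes 56.4% lay above 0, and the class counts here and in later paragraphs were taken on the deposited scale alone. Rab7b, which in macrophages promotes lysosomal degradation of the LPS receptor TLR4, had the lowest p of all Rab genes. It was at 21.4, 19.2 and 21.4 FPKM in siCXCR4 libraries, against 16.3 and 17.7 FPKM in siNC libraries. All siCXCR4 values lay above both siNC values, siCXCR4 replicate 2 lowest among them. The log2 fold change was 0.27 (SE 0.0679, 95% interval 0.10 to 0.43; limma adjusted p = 0.486). By unadjusted limma p (0.00636) it took place 129 among all genes tested. The gene (ENSMUSG00000052688) lies on chromosome 1 at 131688695 to 131715439 in GRCm38, plus strand, and its values rest on 1617 to 2157 reads over its exons. Without siCXCR4 replicate 2, edgeR called it (adjusted p = 0.00810, log2 fold change 0.31, and 2.45% of all genes called), while limma did not (adjusted p = 0.160). Without siNC replicate 1 its unadjusted p by limma missed 0.05, with a log2 fold change of 0.21.

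Rab7, the main Rab of late endosomes and maturing phagosomes, was at 168, 170 and 161 FPKM in siCXCR4 libraries, against 159 and 165 FPKM in siNC libraries. The groups overlapped, and the log2 fold change was 0.04 (95% interval -0.09 to 0.16). Rab7b thus made up 11.3%, 10.2% and 11.7% of the summed Rab7 and Rab7b FPKM in siCXCR4 libraries, against 9.29% and 9.70% in siNC libraries. This share does not depend on how libraries are scaled, and its groups did not overlap. Rab9, which returns mannose 6-phosphate receptors from late endosomes to the Golgi, was at 32.4, 33.7 and 30.7 FPKM in siCXCR4 libraries, against 33.0 and 32.7 FPKM in siNC libraries, with overlapping groups. Rab34, which acts in lysosome positioning and macropinocytosis, was low, at 1.85, 1.62 and 1.51 FPKM in siCXCR4 libraries, against 1.37 and 1.38 FPKM in siNC libraries. Its groups did not overlap and its adjusted p was 0.592 by limma, on 65 to 96 reads per library. Its log2 fold change was 0.16 by limma and 0.26 by edgeR.

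Rab genes of the endoplasmic reticulum, Golgi and constitutive secretion were the largest class, with 14 of 18 tested. Of these 12 lay above 0 (56.4% of all genes did) and 2 below, with a median of 0.05. Rab8b, a paralog of Rab8a in traffic to the plasma membrane, was at 99.1, 96.0 and 102 FPKM in siCXCR4 libraries, against 85.4 and 92.9 FPKM in siNC libraries. The groups did not overlap, but the gap between the nearest libraries was smaller than that between both siNC libraries. Its log2 fold change was 0.15 (SE 0.0578, 95% interval 0.01 to 0.29). The adjusted p was 0.518 by limma (0.0380 before adjustment) and 0.490 by edgeR. The gene (ENSMUSG00000036943) lies on chromosome 9 at 66843664 to 66919687 in GRCm38, minus strand, just downstream of the sequence printed above. Its p before adjustment was under 0.05 in 12 of 19 settings. It was above 0.05 with reads in listed genes as the denominator, with quantile normalization, without trend or robust estimate, with the replicate block, and without siNC replicate 1, siCXCR4 replicate 1 or siCXCR4 replicate 3. Rab10, which in LPS-treated macrophages carries TLR4 to the plasma membrane, was at 131, 138 and 130 FPKM in siCXCR4 libraries, against 125 and 129 FPKM in siNC libraries. Its log2 fold change was 0.06 (95% interval -0.06 to 0.19). Rab1a, needed for transport from the endoplasmic reticulum to the Golgi, was at 84.2, 87.3 and 84.0 FPKM in siCXCR4 libraries, against 81.5 and 81.8 FPKM in siNC libraries, with a log2 fold change of 0.06 (95% interval -0.05 to 0.17). The values of Rab10 and Rab1a did not overlap between groups, but the intervals included 0.

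The remaining tested genes assigned to this class were Rab1b, Rab2a, Rab12, Rab18, Rab8a, Rab14, Rab6a, Rab33b, Rab19, Rab43 and Rab13. Their log2 fold changes lay between -0.08 (Rab18) and 0.11 (Rab19). Each Rab gene was assigned to a single class, and the class counts depend on that assignment. Rab12, a phosphorylation target of the kinase LRRK2, was at 45.0, 42.5 and 45.2 FPKM in siCXCR4 libraries, against 42.4 and 41.4 FPKM in siNC libraries. Its lowest siCXCR4 value and its highest siNC value nearly touched. Rab18, which acts at lipid droplets, had the most negative value of the class, at 36.6, 40.2 and 37.0 FPKM in siCXCR4 libraries, against 40.4 and 39.6 FPKM in siNC libraries. There siCXCR4 replicate 2 lay between the siNC libraries. Without siCXCR4 replicate 2 the log2 fold change of Rab18 was -0.12 by limma and -0.14 by edgeR (adjusted p = 0.373 and 0.317). That of Rab19 was then 0.24 by limma and 0.30 by edgeR (adjusted p = 0.264 and 0.477).

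Early endosomal and phagosomal Rab genes held the most abundant member, and 8 of 10 were tested, 6 above 0 and 2 below, with a median of 0.04. Rab5c, one of the Rab5 proteins that drive fusion of early endosomes, was at 255, 245 and 229 FPKM in siCXCR4 libraries, against 235 and 239 FPKM in siNC libraries. The siNC values fell inside the siCXCR4 range, and the log2 fold change was 0.04 (95% interval -0.11 to 0.18). Rab20, a Rab of endosomes and maturing phagosomes, was at 94.2, 95.5 and 87.0 FPKM in siCXCR4 libraries, against 91.96 and 94.99 FPKM in siNC libraries. Rab21, which binds integrins on early endosomes, was at 41.0, 36.8 and 39.5 FPKM in siCXCR4 libraries, against 38.4 and 39.1 FPKM in siNC libraries. Both overlapped between groups. Rab31, an endosomal Rab of the trans-Golgi network, had the lowest p after Rab7b and Rab8b, at 23.6, 21.1 and 25.7 FPKM in siCXCR4 libraries, against 20.2 and 20.5 FPKM in siNC libraries. The siCXCR4 libraries spread widely, and the log2 fold change was 0.19 (SE 0.0814, 95% interval -0.0037 to 0.38; adjusted p = 0.538 by limma). Without siCXCR4 replicate 2, edgeR called Rab31 (adjusted p = 0.0367, log2 fold change 0.26, and 2.45% of all genes called), while limma did not (adjusted p = 0.190). Rab5a and Rab22a had log2 fold changes of 0.10 and 0.08, and Rab5b and Rab24 of 0.05 and -0.01.

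**Figure D4:**
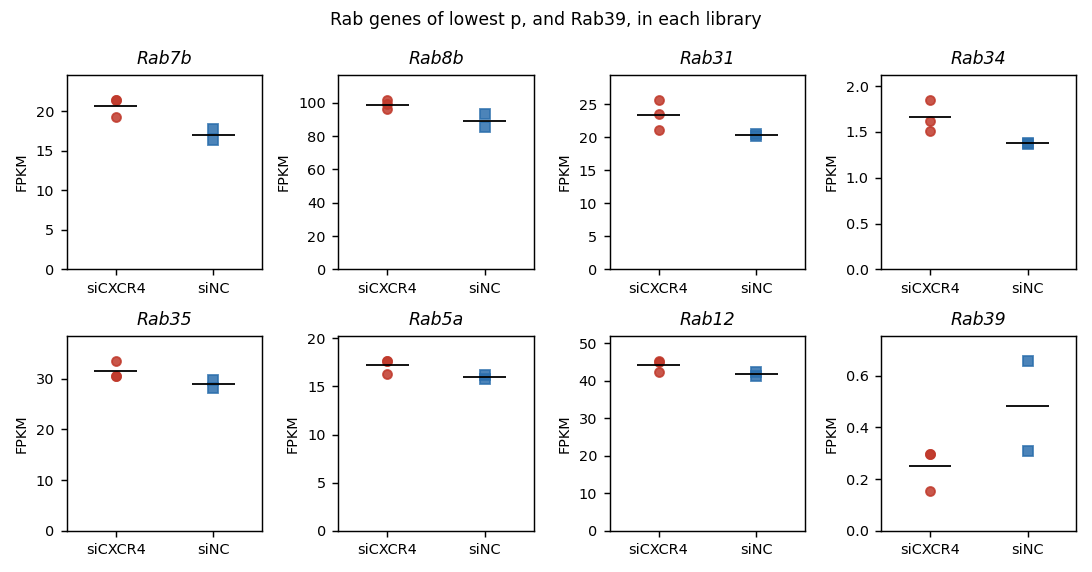
FPKM in each library of the 7 tested Rab genes of lowest p and of Rab39, with siCXCR4 libraries (circles) left of siNC libraries (squares) and the group mean as a bar; each y axis starts at 0. The groups do not overlap in any of these panels, with Rab7b at 19.2 to 21.4 FPKM in siCXCR4 and 16.3 to 17.7 FPKM in siNC. This follows largely from the choice of genes by p or, for Rab39, after its values were seen (27.8% of all genes did not overlap). With reads in listed genes as the denominator, Rab35, Rab5a and Rab12 overlapped.

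Recycling Rab genes were few at measurable levels, with 3 of 8 tested. Rab35, which acts in fast recycling and phagocytosis, was at 33.5, 30.6 and 30.6 FPKM in siCXCR4 libraries, against 29.9 and 28.1 FPKM in siNC libraries. Its groups did not overlap, with a log2 fold change of 0.12 (95% interval -0.03 to 0.26). Rab11a, the main Rab of the recycling endosome, was at 21.4, 23.1 and 21.4 FPKM in siCXCR4 libraries, against 22.9 and 21.6 FPKM in siNC libraries. Rab11b was at 14.7, 14.6 and 13.6 FPKM in siCXCR4 libraries, against 13.7 and 14.3 FPKM in siNC libraries. Both overlapped between groups. The recycling genes Rab4a and Rab4b were under the level tested, on 3 to 9 and 7 to 14 reads per library.

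Of the Rab genes of regulated secretion and lysosome-related organelles, 4 of 12 were tested, 1 above 0 and 3 below, with a median of -0.02. Rab32, which acts in lysosome-related organelles and in defence against bacteria inside macrophages, ranked just below Rab7 in level. It was at 164, 165 and 157 FPKM in siCXCR4 libraries, against 167 and 160 FPKM in siNC libraries, with overlapping groups and a log2 fold change of -0.02 (95% interval -0.14 to 0.11). Rab29, which recruits LRRK2 to membranes, was at 10.5, 11.5 and 12.7 FPKM in siCXCR4 libraries, against 11.4 and 10.2 FPKM in siNC libraries. Rab3d, a secretory granule Rab, was at 3.18, 3.61 and 3.42 FPKM in siCXCR4 libraries, against 3.26 and 3.72 FPKM in siNC libraries. Rab3a had the most negative log2 fold change of all 35, -0.12 (95% interval -0.38 to 0.14), on 72 to 120 reads. It was at 2.08, 1.83 and 1.69 FPKM in siCXCR4 libraries, against 2.44 and 1.82 FPKM in siNC libraries. Its log2 fold change was -0.21 by edgeR and 0.02 by limma without siNC replicate 1. In a last, mixed class, the ubiquitin ligase adaptor Rab40c was at 5.34, 4.29 and 4.99 FPKM in siCXCR4 libraries, against 4.78 and 4.44 FPKM in siNC libraries. Rab28, known from cilia and photoreceptors, was at 3.07, 2.90 and 2.81 FPKM in siCXCR4 libraries, against 2.80 and 3.11 FPKM in siNC libraries. Groups overlapped for Rab29, Rab3d, Rab3a, Rab40c and Rab28.

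Of the 24 untested members, the nearest to the filter was Rab2b at 0.687 FPKM on average, while Rab34 at 1.55 FPKM was the lowest gene tested. Of the 24, 13 had reads in every library, 9 in some, and 2 (Rab3c and Rab9b) in none. With at least 10 reads in every library were Rab2b, Rab38, Rab27a, Rab39, Rab23, Rab6b, Rab44 and Rab36. Rab39, which acts in phagosome acidification, had 10, 17 and 17 reads in siCXCR4 libraries, against 43 and 18 reads in siNC libraries. Its values were 0.155, 0.295 and 0.299 FPKM in siCXCR4 libraries, against 0.656 and 0.307 FPKM in siNC libraries, so the distance between groups came mainly from siNC replicate 1. Its edgeR log2 fold change was -0.99, with an adjusted p of 0.412 (0.0200 before adjustment). Rab27a and Rab27b, regulators of granule and exosome release, had 31 to 41 and 4 to 9 reads per library. Below 10 reads in at least 1 library were Rab33a, Rab42, Rab37, Rab25, Rab15, Rab3b, Rab40b, Rab30, Rab26, Rab39b and Rab17, with Rab4a, Rab4b and Rab27b.

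Within subfamilies of close paralogs, 1 member usually dominated in FPKM, which depends on the listed gene lengths. Rab5c made up 83.8%, 83.0% and 82.4% of the summed FPKM of the Rab5 trio in siCXCR4 libraries, against 83.2% and 83.5% in siNC libraries, followed by Rab5b and Rab5a. Rab8b held 79.6%, 79.0% and 81.3% of the Rab8 pair in siCXCR4 libraries, against 78.2% and 79.7% in siNC libraries. Rab11a held 59.3%, 61.2% and 61.0% of its pair in siCXCR4 libraries, against 62.5% and 60.2% in siNC libraries. Shares were nearly even in the Rab1 pair, with Rab1a at 55.4%, 55.2% and 55.5% in siCXCR4 libraries, against 53.2% and 55.3% in siNC libraries. In the Rab3 subfamily, Rab3d held 60.0% to 66.8% in siCXCR4 libraries and 57.0% and 67.1% in siNC libraries, the rest being almost entirely Rab3a. All of these shares overlapped between groups. Only the Rab7 pair did not, among the 6 subfamilies with at least 2 tested members. That pair holds the Rab gene of lowest p, so its share partly restates the values of Rab7b. Shares of the Rab4, Rab27 and Rab40 pairs, each with a member on few reads, did not overlap either. For comparison, the levels of 27.8% of all genes did not overlap between groups. In the Rab2 and Rab6 pairs, 97.99% to 99.02% of the FPKM came from Rab2a and Rab6a in every library.

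**Figure D5:**
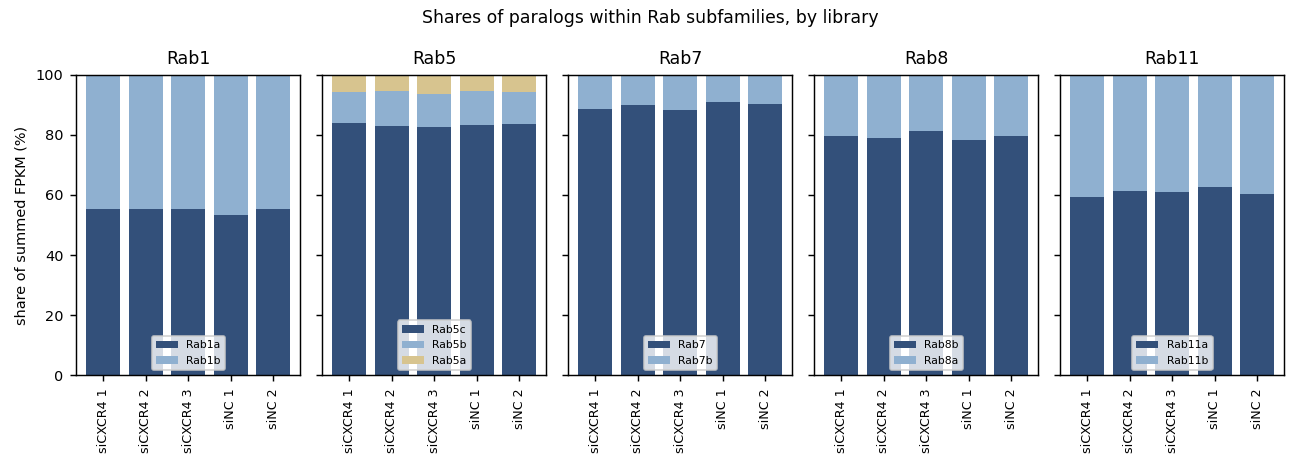
Share of the summed FPKM (y axis, %) held by each member of 5 Rab subfamilies in each library (x axis, siCXCR4 libraries left of siNC libraries), stacked to 100%. Within each subfamily the shares differ by a few percentage points between libraries, and Rab7b holds 10.2% to 11.7% in siCXCR4 and 9.29% to 9.70% in siNC.

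Genes that load, switch and read out Rab proteins were compared in the same fit, from lists compiled by function. No listed gene passed limma, edgeR or DESeq2. Over all genes 56.4% lay above 0 in this fit, and 46.3% with reads in listed genes as the denominator. For these lists the counts were taken on the deposited scale alone. In the list of prenylation, escort and recycling factors, 13 of 14 genes were tested, 6 of them above 0 and 7 below. Their median was -0.01, against 0.01 over all genes. No member had an unadjusted p under 0.05. Rabac1, a Rab acceptor of the Golgi, averaged 24.7 ± 3.06 FPKM in siCXCR4 (SD, n = 3) and 30.0 ± 4.06 FPKM in siNC (SD, n = 2), with overlapping groups. Chm, the Rab escort protein REP1, was at 2.90, 3.01 and 2.83 FPKM in siCXCR4 libraries, against 2.56 and 2.78 FPKM in siNC libraries. The groups of Chm, also picked by p, did not overlap, as in 27.8% of all genes.

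Among the exchange factors, 46 of 50 listed genes were tested, with 24 above 0, 22 below and a median of 0.0045. Before adjustment 4 higher genes and 1 lower gene had p under 0.05 by limma, against 5.8% and 3.54% of all genes. Trappc2l, a subunit of the TRAPP complexes that act on Rab1 and Rab11, was at 9.68, 9.71 and 8.49 FPKM in siCXCR4 libraries, against 11.5 and 11.5 FPKM in siNC libraries (log2 fold change -0.28, adjusted p = 0.457 by limma). Dennd2a, a GEF for Rab9, was at 6.29, 5.36 and 5.58 FPKM in siCXCR4 libraries, against 4.55 and 4.56 FPKM in siNC libraries (0.28, adjusted p = 0.486). Rin3, a GEF for Rab5 and Rab31, was at 6.11, 6.57 and 6.25 FPKM in siCXCR4 libraries, against 5.64 and 5.28 FPKM in siNC libraries (0.18, adjusted p = 0.504). In all 3 genes the groups did not overlap, as in 27.8% of all genes, but the 3 were picked for lowest p.

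Of the GAPs, 28 of 37 were tested, with 22 above 0 (56.4% of all genes were), 6 below and a median of 0.04. Before adjustment 1 passed 0.05 in each direction (5.8% of all genes higher, 3.54% lower). Tbc1d2, a GAP for Rab7, was at 1.62, 1.44 and 1.64 FPKM in siCXCR4 libraries, against 1.95 and 2.001 FPKM in siNC libraries (log2 fold change -0.22, adjusted p = 0.504 by limma; -0.35 by edgeR, and -0.34 with a pseudocount of 0.01). Tbc1d20, a GAP for Rab1, was at 45.9, 46.1 and 44.3 FPKM in siCXCR4 libraries, against 40.2 and 42.5 FPKM in siNC libraries (0.13, adjusted p = 0.512). Tbc1d13, a GAP for Rab35, had 0.10 (95% interval -0.01 to 0.21).

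Of the effectors, 37 of 51 were tested, with 29 above 0 (56.4% of all genes were), 8 below and a median of 0.05. Before adjustment 5 higher and 0 lower genes had p under 0.05 (5.8% and 3.54% of all genes). Rilpl1, a partner of LRRK2-phosphorylated Rab8 and Rab10 proteins, was at 10.9, 8.65 and 9.77 FPKM in siCXCR4 libraries, against 7.34 and 8.26 FPKM in siNC libraries (log2 fold change 0.29, adjusted p = 0.504 by limma). Plekhm1, which links Rab7 to the fusion machinery of lysosomes, was at 22.9, 24.0 and 26.0 FPKM in siCXCR4 libraries, against 21.03 and 21.61 FPKM in siNC libraries (0.18, adjusted p = 0.509). Rufy1, an effector on early endosomes, had 0.14 (95% interval 0.0015 to 0.27). The siCXCR4 libraries of Rilpl1, Plekhm1 and Rufy1 lay above both siNC libraries, as in 17.9% of all genes. These genes were picked for lowest p, so their separation follows largely from the choice.

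Near-identical copies and overlapping genes limit some of these values. How the authors treated reads matching several places, and whether strand was used, is not stated in any source used here. The processed pseudogenes Rab7-ps1 and Rab11b-ps2 had 197 to 244 and 152 to 207 reads per library. Exons of 11 tested Rab genes share bases with another gene that had reads. For Rab24, 62.4% of exon bases lie opposite Prelid1, which averaged 2760 reads against 155 for Rab24, so the level of Rab24 is uncertain. For Rab6a, 18.99% lie opposite Mrpl48, which averaged 239 reads against 1483, and for Rab20, 25.6% lie opposite a noncoding gene with 82.4 reads against 2637. For Rab3a, 1.30% of exon bases lie opposite Mpv17l2, and for Rab43, 75.4% lie in Gm45140 on the same strand, which averaged 4.6 reads against 289.8. Neither Rab7b nor Rab8b nor Rab31 shared exon bases with an annotated gene with reads.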

How the data were processed

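RNA sequencing had been deposited as 1 table of 54532 genes per sample. The authors deposited FPKM in 5 of them, as worked out from the values, since no header names a unit (RPKM would look the same). The table of siNC replicate 3 holds unnormalized read counts as deposited by the authors. The submitters' processing notes name the build mm9, but 98.3% of genes shared with GENCODE M21 had the GRCm38 position, so GRCm38 coordinates are given. For aligner and counter: not given in the sources used here.

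Whole reads were worked back from FPKM and gene length, and 100% of values came out whole within 0.05. The test was limma 3.58.1 (trend and robust estimate, R 4.3.3) on log2(FPKM + 1) of the 9943 genes averaging 1 FPKM or more. It was two-sided, and calls needed a Benjamini-Hochberg adjusted p under 0.05. The labels give 3 samples a group, but the design was planned on the distinct libraries, with the copy among the siNC tables already known. edgeR 4.0.16 (TMM) and DESeq2 1.42.0 on the whole reads were alternatives, as were other pseudocounts, filters and scalings, a replicate block and each library left out; edgeR with each library left out was added after the data were seen. The limma and edgeR tests were tested on simulated data. The members and lists were chosen with earlier results of these data known.

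Genes named per library were Cxcr4, Rab genes with an unadjusted p under 0.05 and the 3 most abundant tested of each role; of each list of regulators, the 3 of lowest p. For 1 gene this rule names, the result is not reported here. Rab12, Rab18, Rab31, Rab34, Rab39 and Rab3a were chosen after their values were seen. Intervals and read ranges cover sampling of these libraries, and PCR copies among the reads are not separate molecules. Upstream sequences and motif searches use RefSeq (GRCm38.p6).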

Additional observations from a re-analysis of the deposited data

How the results depend on the processing

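Over 19 settings, edgeR with libraries left out not among them, Rab7b, Rab8b and Rab31 kept a log2 fold change above 0, at 0.21 to 0.32, 0.09 to 0.21 and 0.13 to 0.26, with adjusted p of 0.118 to 0.924, 0.209 to 0.924 and 0.190 to 0.924. Rab genes called stayed at 0 except for 2 of 44 by edgeR without siCXCR4 replicate 2 (4.55%, against 2.45% of all genes). Genes called, 0 by limma, were 17 by edgeR, 34 by DESeq2 and 6 with the copy as a separate replicate. They were 0 to 2 by limma with a library left out (2 without siCXCR4 replicate 2). By edgeR they were 0 to 312, with 312 without siCXCR4 replicate 2, 20 without siNC replicate 2, 5 without siNC replicate 1, 3 without siCXCR4 replicate 3 and 0 without siCXCR4 replicate 1. Cxcr4, at -0.34 by DESeq2, passed there (adjusted p = 0.0496).

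The number of Rab genes below 0.05 before adjustment, 2 by limma, was 4 by edgeR and 5 with the copy. It was 1 with quantile normalization, with reads in listed genes as the denominator and without trend or robust estimate. With a library left out it was 0 to 4 by limma and 1 to 5 by edgeR. The median log2 fold change of the Rab genes tested, 0.05, was 0.02 by edgeR (0.0196), DESeq2 (0.0221), no filter (0.0163), quantile normalization (0.0199) and reads in listed genes (0.0194).

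With the replicate number as a block, 0 genes and 0 Rab genes were called, 1 Rab gene (Rab7b) had an unadjusted p under 0.05 and the Rab median was 0.05. Same-numbered libraries correlated at -0.04 and -0.11 in their deviations from the group means. The deviations of the 2 siNC libraries mirror each other, so this check cannot tell whether same-numbered libraries shared a culture or batch. siCXCR4 replicate 3 has no siNC partner and adds nothing to the blocked fold changes.

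Log2 fold changes near 0 changed sign. Under the block Rab11a was 0.0014, Rab20 0.0213, Rab28 0.0118, Rab32 0.0044 and Rab9 0.0084, with the same values without siCXCR4 replicate 3. Rab21 was -0.0031 by edgeR, -0.00052 by DESeq2, -0.0255 with quantile normalization and -0.0140 with reads in listed genes. With a library left out, the ranges were -0.0582 to 0.0245 for Rab11a, -0.0488 to 0.0120 for Rab32, -0.0454 to 0.0213 for Rab20, -0.0664 to 0.0470 for Rab28, -0.101 to 0.0469 for Rab3d, -0.0561 to 0.0084 for Rab9 and -0.0204 to 0.0548 for Rab21. For these sign changes the cause was not tested. Rab3a ranged from -0.27 to 0.02. Of the 24 Rab genes under 1 FPKM, edgeR and DESeq2 tested 9 and called 0. DESeq2 gave no adjusted p for Rab38, Rab39, Rab4b, Rab44 and Rab36, so it could not call them.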
